A study of Chlorocebus sabaeus with 6 samples.

Results

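Transcripts of the nuclear envelope were compared between COS7 cells of genotype WT (WT1, WT2 and WT3) and COS7 cells labelled as ATL2/3 knockout (DKO1, DKO2 and DKO3). COS7 is a fibroblast-like kidney line of the African green monkey, and ATL2 and ATL3 encode atlastins, the GTPases that join tubules of the endoplasmic reticulum. All samples were of that one line, kept in DMEM with fetal bovine serum, and no other allele or agent is named. The labels give neither the number of knockout clones nor whether samples of a genotype were separate cultures, so the tests measure only the spread between these samples. The genes were chosen by symbol, as nucleoporins, lamins, and inner membrane and linker genes. Of 47 symbols, 44 had a row in the table of 18050 genes. ELYS, an alias of AHCTF1, had no row of its own, POM121 had no row under that symbol, and the row with the gene ID that RefSeq calls NUP42 carries the older symbol NUPL2, which the choice by symbol leaves out.

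Nuclear pore complexes are channels through both membranes of the nuclear envelope. Stacked rings of scaffold nucleoporins hold a central barrier of phenylalanine-glycine (FG) repeats, with filaments on the cytoplasmic face and a basket on the nuclear face. Beneath the inner membrane lies the lamina, a mesh of A-type and B-type lamins that membrane proteins such as LBR and emerin tie to chromatin. SUN proteins of the inner membrane bind KASH proteins (nesprins, the SYNE genes) of the outer membrane and so form the LINC complex, which couples the nucleus to the cytoskeleton. The outer membrane is continuous with the endoplasmic reticulum.

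The libraries held between 14197344 and 15693049 estimated counts. ATL2 fell to 19.4% and ATL3 to 13.6% of their mean WT level in FPKM, the authors' read level scaled for transcript length and library size. DKO3 stood apart from DKO1 and DKO2 on the second principal component (9.41% of the variance), so counts of calls are also given without it where they change. Of the marker lists, fibronectin (FN1, 1838 FPKM in WT), vimentin (VIM, 1533) and keratin 8 (KRT8, 508) were abundant, while THY1 was at 0 throughout. The summed level of 10 fibroblast markers was 3361 to 3451 FPKM in WT and 1525 to 1580 in DKO. FN1, at 207 FPKM in DKO, carried most of that drop, while PDGFRA went from 0.26 to 16.8 FPKM. For 10 epithelial markers the sums were 742 to 835 and 558 to 723. KRT8, whose samples overlapped between genotypes, made up most of each sum and hid shifts in both directions. CDH1 went from 4.84 to 0.09 FPKM and PAX8 from 76.3 to 28.3, and ESRP1 was at 0 in DKO, while EPCAM went from 12.9 to 32.0. Of the 8 epithelial markers tested, 2 were higher in DKO and 5 lower at an edgeR adjusted p under 0.05. For 6 endothelial markers the sums were 0.30 to 0.39 and 15.1 to 15.8 FPKM, and TEK made up nearly all of the sum in DKO. For 6 immune markers they were 21.3 to 24.3 and 24.8 to 37.3. Of these, LYZ went from 7.21 to 17.8 FPKM, and CD68 was at 15.0 and 14.0. The part of these shifts in the results on nuclear envelope genes was not tested, and in bulk RNA fewer cells of a type and less RNA per cell cannot be told apart.

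Among the 44 envelope genes (the members), LBR, NUP133, SYNE2, TPR, AHCTF1, NUP155, SUN1 and SYNE1 fell and SUN2, LMNB1 and NUP98 rose under every alternative analysis run. All 44 passed the filter on low counts and were tested with edgeR on the counts, and a gene is called at a Benjamini-Hochberg adjusted p under 0.05 over 13094 genes. Of the 44, 8 were higher in DKO, 11 lower and 25 not called, so 43.2% were called against 45.5% of all tested genes, a share near that background. By direction, the background was 23.3% higher and 22.2% lower. The members' split was 7 higher and 17 lower when counts were scaled by totals only (22.6% and 23.4% of all genes). It was 6 and 13 with DESeq2, against 17.9% and 19.7% of 16407 genes. That larger set was taken without edgeR's filter on low counts, so its shares are not on the same footing. The WT and DKO samples did not overlap in FPKM for 28 members (63.6%), against 63.2% of all tested genes. DKO lay above WT for 9 of them and below for 19, against 29.1% and 34.1% of all genes. A called change of 2-fold or more was found for 5 members (11.4%), namely LBR, NUP133, SYNE2, TPR and AHCTF1, against 21.9% of all genes. These 5 were lower in DKO, as were 12.1% of all genes at that size. The median log2 fold change was -0.15 over the members and -0.01 over all tested genes, and its median size 0.34 against 0.47. Without DKO3, 14 members were higher, 20 lower and 10 not called, against 74.6% called over all genes (36% higher and 38.6% lower). All 19 calls kept their direction in that fit, but AHCTF1 and TPR then lay inside the 2-fold limit.

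**Figure D1:**
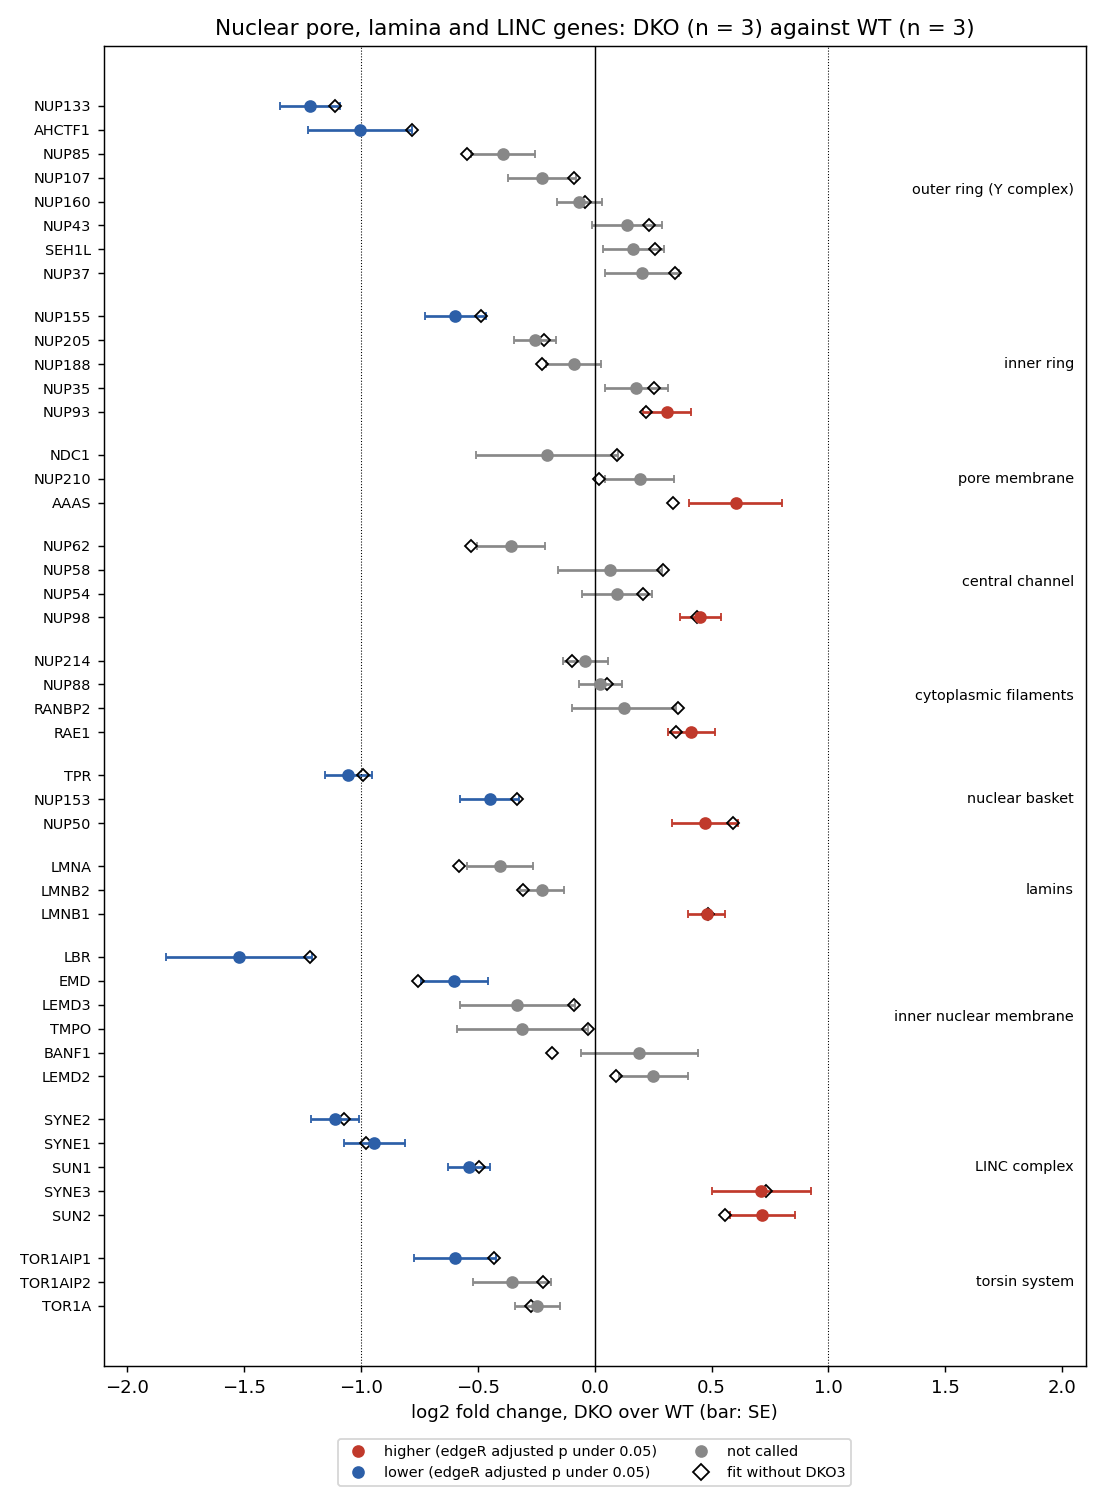
Log2 fold change (DKO over WT, horizontal axis) of the 44 genes, grouped by their place in the pore or envelope; circles with bars are edgeR estimates with SE over 3 samples per genotype, coloured by call, and open diamonds are the fit without DKO3. The lowest values belong to LBR, NUP133, SYNE2, TPR and AHCTF1, and the highest to SUN2 and SYNE3.

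The outer ring of the pore is built from Y-shaped complexes. Of its 8 measured members, 2 (25%) fell and 6 were not called, near the 22.2% of all tested genes that were called lower. NUP133, at the tip of the Y complex stalk, had 40.6, 38.8 and 41.3 FPKM in WT1, WT2 and WT3 and 18.9, 18.3 and 13.5 in DKO1, DKO2 and DKO3. Every DKO sample lay below every WT sample, at 40.2 ± 1.3 against 16.9 ± 2.94 FPKM (mean ± SD, n = 3 in each genotype here and throughout). The edgeR estimate on the log2 scale was -1.22 with an SE of 0.13 (adjusted p = 0.00034). AHCTF1, also called ELYS, which recruits the Y complex to chromatin when pores re-form after mitosis, had 21.2, 19.8 and 22.0 FPKM in WT and 11.97, 12.3 and 6.47 in DKO. DKO3 was the lowest sample, and the log2 fold change (-1.004, SE 0.22, edgeR adjusted p = 0.0092) became -0.78 without DKO3.

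The partners of NUP133 in the stalk and the arms of the Y did not show a drop of that size. NUP107, which binds NUP133 directly, was at 40.6 ± 2.19 FPKM in WT and 33.9 ± 7.11 in DKO, with overlapping samples and a log2 fold change of -0.22 (95% interval -0.57 to 0.12). NUP160 was at 21.8 ± 1.42 and 20.3 ± 1.38 FPKM. The ratio of NUP133 to NUP107, chosen after the values were seen and given without a test, was 0.97, 1.02 and 0.98 in WT and 0.50, 0.48 and 0.52 in DKO, so it was lower in every DKO sample, DKO3 included. NUP85 was at 55.8 ± 1.67 and 41.0 ± 4.99 FPKM, just short of a call (-0.39, edgeR adjusted p = 0.052). NUP37, NUP43 and SEH1L had log2 fold changes of 0.20, 0.14 and 0.17, none called. Without DKO3, NUP85 was called lower and NUP37 and SEH1L higher, in a fit that called 74.6% of all genes.

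In the inner ring, which lies against the pore membrane, NUP155 fell and NUP93 rose. NUP155 had 28.1, 27.0 and 28.4 FPKM in WT and 20.4, 19.2 and 14.3 in DKO (log2 fold change -0.60, SE 0.13, edgeR adjusted p = 0.009). NUP93 had 68.9, 66.6 and 69.5 FPKM in WT and 79.9, 78.9 and 88.4 in DKO (0.31, SE 0.10, edgeR adjusted p = 0.041). The samples did not overlap for either gene. The call for NUP93 was lost without WT1, WT2, WT3 or DKO1, with adjusted p from 0.068 to 0.14 and log2 fold changes from 0.29 to 0.33, and also with DESeq2. The large scaffold genes NUP188 and NUP205 were not called, at -0.09 and -0.25 (adjusted p = 0.57 and 0.054), nor was NUP35, at 0.18. In the fit without DKO3, which called 74.6% of all genes, NUP188 and NUP205 were called lower and NUP35 higher.

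Of the genes for the pore's membrane anchors, AAAS rose, and NDC1 and NUP210 were not called. AAAS, which encodes aladin, a partner of NDC1 that is mutated in triple A syndrome, had 61.6, 63.2 and 58.3 FPKM in WT and 78.8, 75.3 and 112 in DKO. The samples did not overlap, and DKO3 was the highest (log2 fold change 0.60, SE 0.20, edgeR adjusted p = 0.044, and 0.33 without DKO3). Without WT1, WT2 or WT3 it was not called (0.57 to 0.62, adjusted p from 0.11 to 0.14), nor was it with limma-voom. NDC1 was at 19.2, 19.6 and 20.2 FPKM in WT and at 20.0, 21.7 and 8.68 in DKO. DKO1 and DKO2 thus lay within or just above the WT values and DKO3 far below them. The log2 fold change of NDC1 was -0.20 (95% interval -0.92 to 0.51), and 0.10 without DKO3.

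In the central channel, whose FG nucleoporins form the diffusion barrier, NUP98 rose and the 3 genes of the NUP62 complex were not called. The NUP98 gene encodes both the FG protein NUP98 and, by cleavage of a common precursor, the Y complex subunit NUP96. It had 20.5, 20.5 and 21.5 FPKM in WT and 27.3, 29.2 and 27.0 in DKO, without overlap (log2 fold change 0.45, SE 0.09, edgeR adjusted p = 0.0052). NUP62, NUP54 and NUP58 make the channel's trimeric complex. NUP62 was at 53.8 ± 2.97 FPKM in WT and 39.5 ± 5.61 in DKO (-0.36, edgeR adjusted p = 0.082), with every DKO sample below WT. NUP54 and NUP58 had log2 fold changes of 0.10 and 0.07, with DKO1 and DKO2 above and DKO3 below all WT samples in FPKM. Without DKO3 all 3 were called, NUP62 lower and NUP54 and NUP58 higher, in a fit that called 74.6% of all genes. NUP58 had counts that were not whole in all 6 samples, so some of its reads were divided among genes and its value is uncertain.

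Among genes of the cytoplasmic filaments, RAE1, an mRNA export factor that binds NUP98, rose from 44.9, 42.7 and 44.8 FPKM in WT to 56.4, 55.6 and 59.0 in DKO (log2 fold change 0.41, SE 0.10, edgeR adjusted p = 0.013). The samples did not overlap, yet without WT1, WT2 or WT3 the adjusted p was 0.06 to 0.069. NUP88 was at 51.0 ± 1.23 and 49.8 ± 2.8 FPKM (log2 fold change 0.02, 95% interval -0.19 to 0.24), and its partner NUP214 at 19.1 ± 0.357 and 18.1 ± 0.85 (-0.04, interval -0.27 to 0.19). RANBP2, the SUMO ligase of the filaments, had 27.0, 25.9 and 29.0 FPKM in WT and 34.4, 35.5 and 19.7 in DKO, above WT in DKO1 and DKO2 and below it in DKO3 (0.13, 95% interval -0.40 to 0.65). Without DKO3 it was called higher (0.35, edgeR adjusted p = 1.1e-09). NUPL2, outside the 44, was at 19.7 ± 0.621 and 18.2 ± 2.71 FPKM and not called (-0.07, edgeR adjusted p = 0.65).

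All 3 nuclear basket genes were called, against 45.5% of all genes. TPR and NUP153 fell and NUP50 rose, the last with a call that most alternatives lost. TPR, the long coiled-coil protein that forms the basket's struts, had 32.4, 31.5 and 33.9 FPKM in WT and 16.0, 16.6 and 13.3 in DKO (log2 fold change -1.05, SE 0.10, edgeR adjusted p = 0.00021). NUP153, its anchor on the pore's nuclear ring, had 41.5, 40.2 and 41.6 FPKM in WT and 31.9, 33.1 and 23.3 in DKO (-0.45, SE 0.13, edgeR adjusted p = 0.025). NUP50, a mobile cofactor of importins that binds NUP153, went the other way, from 14.7, 13.5 and 14.9 FPKM to 21.7, 21.5 and 15.2 (0.47, SE 0.14, edgeR adjusted p = 0.03). No samples overlapped, but DKO3 exceeded the highest WT sample of NUP50 only narrowly. NUP50 was called in the fit without DKO3 (0.59) and in none that left out another sample (0.39 to 0.50, adjusted p from 0.087 to 0.13), and its call was also lost with totals only, without the count filter and with limma on FPKM. NUP153 was not called without WT1, WT2 or WT3 (-0.47 to -0.44, adjusted p from 0.072 to 0.087). The ratio of NUP50 to NUP153 was 0.35, 0.34 and 0.36 in WT and 0.68, 0.65 and 0.65 in DKO, a choice made after the values were seen.

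**Figure D2:**
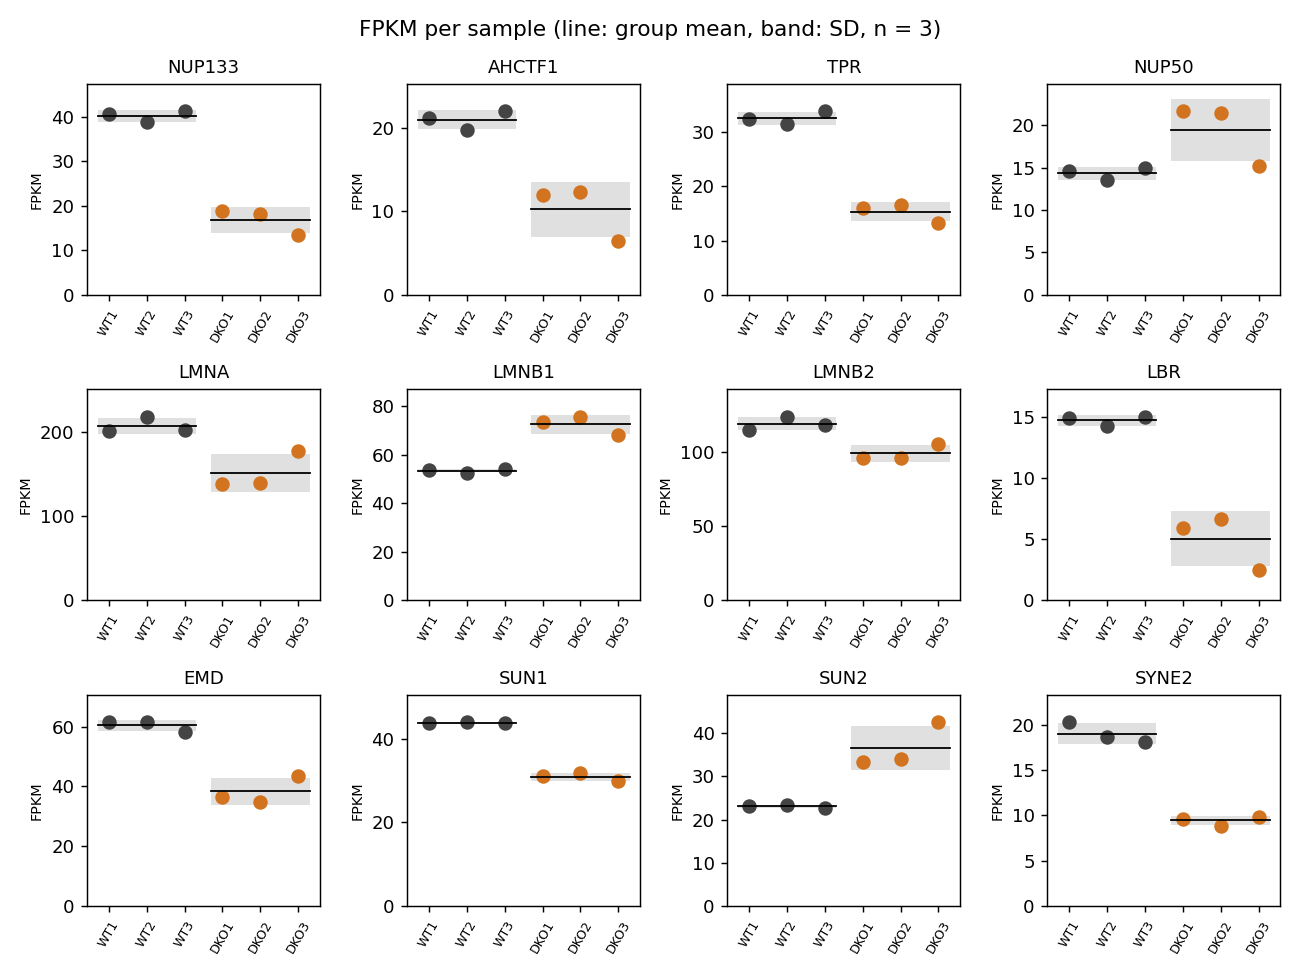
FPKM (vertical axes, from 0) of 12 of the genes in each sample, with the mean (line) and SD (band) of 3 WT and 3 DKO samples. DKO3 lies farther from WT than DKO1 and DKO2 for NUP133, AHCTF1, TPR, LBR and SUN2, and nearer to WT for LMNA, LMNB2, EMD and NUP50.

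Among the lamins, LMNB1 rose, while LMNA and LMNB2 were lower in every DKO sample without a call. LMNA, which encodes the A-type lamins A and C, had 201, 218 and 203 FPKM in WT and 138, 139 and 177 in DKO. Its log2 fold change was -0.41 (95% interval -0.74 to -0.07, edgeR adjusted p = 0.051), at the threshold. DESeq2, limma-voom and the other normalizations called it lower (adjusted p from 0.024 to 0.045), as did the fit without DKO3 (-0.58). LMNB1, a B-type lamin that stays farnesylated and membrane-bound, had 53.7, 52.7 and 54.2 FPKM in WT and 73.7, 75.7 and 68.2 in DKO (0.48, SE 0.08, edgeR adjusted p = 0.0028). LMNB2 had 115, 124 and 118 FPKM in WT and 95.6, 95.7 and 105 in DKO (-0.23, edgeR adjusted p = 0.09, and called lower without DKO3 at -0.30).

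The lamin mix of each DKO sample differed from that of each WT sample. LMNA made up 54.3, 55.3 and 54.1% of the summed lamin FPKM in WT and 44.8, 44.8 and 50.5% in DKO. The share of LMNB1 was 14.5, 13.4 and 14.4% in WT and 24.0, 24.4 and 19.5% in DKO. LMNB2 had a share of 30.0 to 31.5% in all 6 samples. The lamins together summed to 380 ± 13.1 FPKM in WT and 323 ± 24.3 in DKO. These shares were computed after the values were seen and are descriptions.

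**Figure D3:**
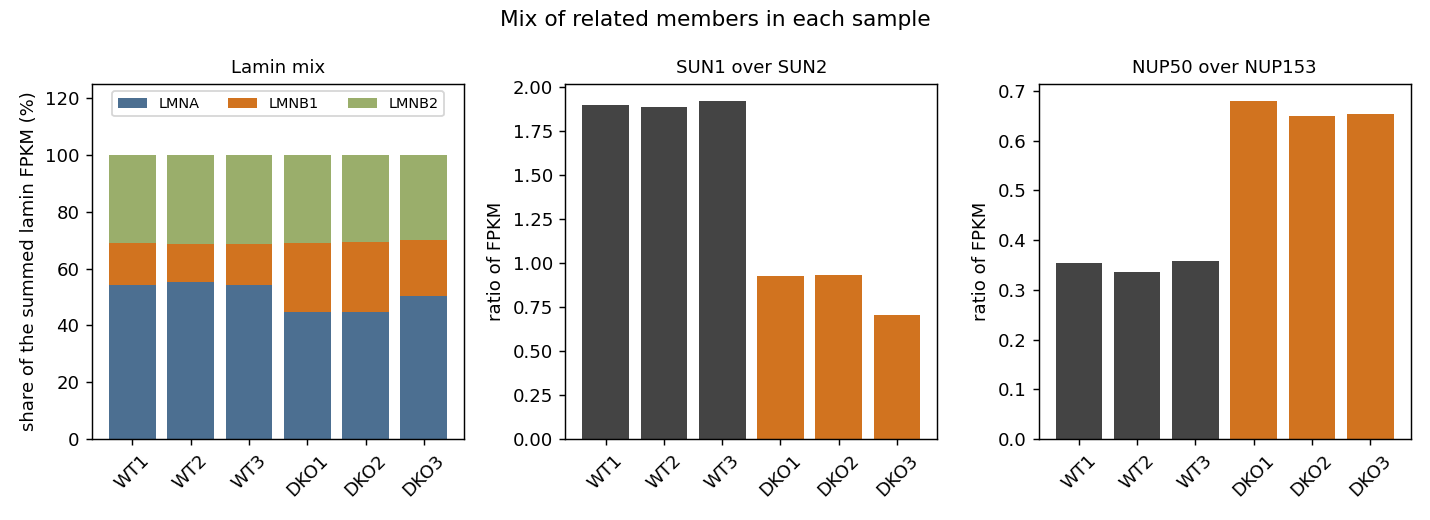
Left, the share of LMNA, LMNB1 and LMNB2 in their summed FPKM (percent) in each sample; middle and right, the ratio of FPKM of SUN1 to SUN2 and of NUP50 to NUP153. LMNB1 takes 13.4 to 14.5% in WT and 19.5 to 24.4% in DKO, and SUN1 exceeds SUN2 in the WT samples only.

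Of 6 genes for inner membrane proteins and their chromatin partner, LBR and EMD fell (33.3%) and 4 were not called. Over all tested genes, 22.2% were called lower. LBR, the lamin B receptor, tethers heterochromatin and also carries a sterol reductase domain. It had 14.9, 14.3 and 15.1 FPKM in WT and 5.96, 6.69 and 2.51 in DKO. All DKO samples were below WT and DKO3 was the lowest. The edgeR estimate, -1.52 on the log2 scale (SE 0.31, adjusted p = 0.0067), was the lowest of the 44, and it was -1.22 without DKO3. EMD, which encodes emerin, a LEM-domain protein mutated in Emery-Dreifuss muscular dystrophy, had 61.4, 61.5 and 58.3 FPKM in WT and 36.6, 34.9 and 43.4 in DKO (-0.60, SE 0.14, edgeR adjusted p = 0.013). Without WT1 the call for EMD was lost (-0.59, adjusted p = 0.054).

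The remaining inner membrane genes showed no common direction, and DKO3 lay apart from DKO1 and DKO2 for each. TMPO, the gene of the LAP2 proteins, had 60.7 and 62.3 FPKM in DKO1 and DKO2, among the WT values of 59.6 to 65.6, and 27.0 in DKO3 (log2 fold change -0.31, and -0.03 without DKO3). LEMD3, which encodes MAN1, was at 7.84, 9.02 and 4.2 FPKM in DKO against 8.77 to 9.13 in WT (-0.33, and -0.09 without DKO3). BANF1, the small DNA-binding protein BAF that LEM domains bind, had the highest level of the 44, at 369 ± 13.6 FPKM in WT. Its values in DKO were 331, 335 and 493, below WT in DKO1 and DKO2 and above it in DKO3. The log2 fold change of BANF1 was 0.19 (edgeR adjusted p = 0.57), and without DKO3 it was called lower at -0.18 (adjusted p = 0.002). LEMD2 was at 18.8 ± 0.46 and 22.1 ± 3.62 FPKM and not called (0.25).

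All 5 LINC genes were called, against 45.5% of all genes. SUN1, SYNE1 and SYNE2 fell and SUN2 rose under every alternative run, and SYNE3 rose with a call that several alternatives lost. SUN1 had 43.7, 44.0 and 43.7 FPKM in WT and 31.0, 31.8 and 29.9 in DKO (log2 fold change -0.54, SE 0.09, edgeR adjusted p = 0.0029). SUN2 had 23.0, 23.3 and 22.7 FPKM in WT and 33.4, 34.1 and 42.6 in DKO (0.72, SE 0.14, edgeR adjusted p = 0.0053). The order of the pair was thus reversed, with a ratio of SUN1 to SUN2 of 1.90, 1.89 and 1.92 in WT and 0.93, 0.93 and 0.70 in DKO. Their sum was 66.8 ± 0.379 FPKM in WT and 67.5 ± 4.34 in DKO, with overlapping samples.

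The nesprin genes together summed to 20.3 ± 1.11 FPKM in WT and 10.5 ± 0.476 in DKO, nearly all of it SYNE2. SYNE2, the giant nesprin-2 that binds actin and microtubule motors, had 20.3, 18.7 and 18.1 FPKM in WT and 9.59, 8.86 and 9.87 in DKO. At a log2 fold change of -1.11 (SE 0.10) it had the smallest adjusted p of the 44 (edgeR adjusted p = 0.00019). DKO3 lay close to the other DKO samples here, and the value without it was -1.07. SYNE1, which encodes nesprin-1, was low, at 0.80, 0.83 and 0.94 FPKM in WT and 0.40, 0.46 and 0.43 in DKO (-0.94, SE 0.13, edgeR adjusted p = 0.0011). SYNE3, whose product nesprin-3 binds intermediate filaments through plectin, was lower still, at 0.43, 0.49 and 0.30 FPKM in WT and 0.70, 0.67 and 0.60 in DKO (0.71, SE 0.21, edgeR adjusted p = 0.03). With 33 counts in DKO3 and 22 in WT1, SYNE3 is measured with little precision. It was not called without WT1, WT3, DKO1 or DKO2 (0.54 to 0.74, adjusted p from 0.067 to 0.1), nor with DESeq2. Long and short forms of these genes, with and without the membrane-binding KASH domain, cannot be told apart in values per gene.

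In the torsin system, TOR1AIP1 fell, and TOR1A and TOR1AIP2 were not called. TOR1A, the ATPase whose mutation causes DYT1 dystonia, had 38.0, 39.2 and 41.1 FPKM in WT and 33.1, 32.1 and 31.5 in DKO (log2 fold change -0.24, edgeR adjusted p = 0.077). TOR1AIP1 encodes LAP1, its activator in the inner nuclear membrane, and had 21.2, 19.5 and 21.3 FPKM in WT and 15.1, 15.4 and 9.52 in DKO (-0.60, SE 0.17, edgeR adjusted p = 0.028). Without WT1, WT2 or WT3 that call was lost (-0.65 to -0.58, adjusted p from 0.068 to 0.094), and its counts were not whole in 5 samples, so its value is uncertain. TOR1AIP2, the gene of the activator LULL1 of the endoplasmic reticulum, was at 4.93 ± 0.195 and 3.77 ± 0.866 FPKM (-0.35, adjusted p = 0.13). Without DKO3 all 3 genes were called lower, in a fit that called 74.6% of all genes and 38.6% lower. For each of the 28 genes whose samples do not overlap, an exact two-sided permutation test gives p = 0.1, the smallest that 3 against 3 allow.

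**Figure D4:**
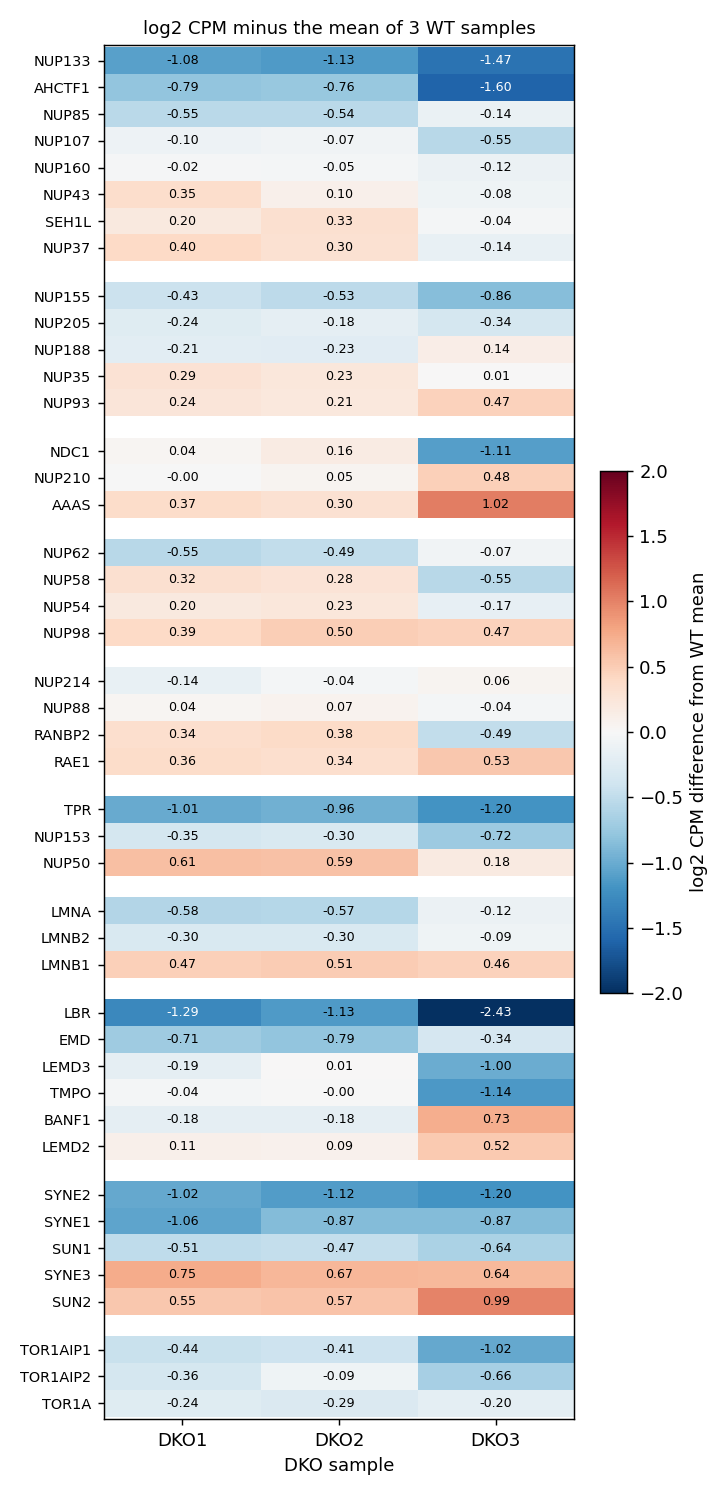
Difference of each DKO sample from the mean of the 3 WT samples, in log2 CPM (counts scaled to library size with TMM factors), for the 44 genes in the order of the plot of fold changes; red is above and blue below the WT mean. The columns DKO1 and DKO2 resemble each other, and DKO3 is lower than both for LBR, NDC1, TMPO and LEMD3 and higher for BANF1 and AAAS.

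The distance of DKO3 from DKO1 and DKO2 varied among the 44. It lay over 0.5 in log2 CPM from their mean for 10 of the 44 (22.7%), against 43.7% of all tested genes. The difference was largest for LBR (-1.22), NDC1 (-1.21) and TMPO (-1.12) on the low side and for BANF1 (0.90) and AAAS (0.68) on the high side. For 9 of the 44 (20.5%), DKO1 and DKO2 lay on one side of all WT samples in log2 CPM and DKO3 on the other, against 14.4% of all genes. Of these 9, 6 were lower in DKO3 (NUP37, NUP43, NUP54, NUP58, NUP88 and RANBP2) and 3 higher (NUP188, NUP214 and BANF1). The sides of NUP214 and NUP88 depended on the scale. In FPKM the DKO3 value of NUP214 (18.68) lay just below all WT samples (18.74 to 19.41). The DKO1 value of NUP88 (50.83 FPKM) lay within the WT samples (49.64 to 51.89). Why DKO3 differs was not tested.

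Members on the same chromosome as many lower genes tended to be lower, and those among higher genes higher. This comparison was added after the values were seen, and it takes from RefSeq (assembly mChlSab1.0.hap1) only which genes share a chromosome or neighbour each other, since the authors' build is not given in the sources used here. All 44 gene IDs and 12648 of the 13094 tested genes had a chromosome. LBR, TPR, TOR1AIP1, TOR1AIP2, NUP133 and AHCTF1 lie on 1 chromosome, and all 6 had log2 fold changes below 0, from -1.52 to -0.35. The 328 other tested genes of that chromosome had a median log2 fold change of -0.71, the lowest of the 24 chromosomes with a member, and 198 of them (60.4%) were called lower, against 22.2% of all tested genes. Without DKO3 the median was -0.64, again the lowest, with 78% called lower against 38.6% of all genes. Their median log2 CPM difference from WT was -0.64 in DKO1, -0.61 in DKO2 and -1.03 in DKO3. Thus 4 of the 5 members called at a 2-fold drop lie on the chromosome that was lowest as a whole.

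SUN2, NUP50 and LMNB1 lay on chromosomes where many genes were higher. NUP50 and SUN2 share the chromosome whose 293 other genes had the highest median, 0.63, with 183 (62.5%) called higher against 23.3% of all tested genes (0.50 and 69.3% without DKO3, against 36%). LMNB1 lies on the chromosome with the second highest median, 0.51 over 343 other genes, of which 52.5% were called higher (0.54 and 71.7% without DKO3, then the highest median). EMD lies on a chromosome with a median of -0.38, where 44.2% of other genes were called lower (-0.39 and 58.2% without DKO3). For NUP155 the median was -0.47 with 36.1% called lower, and it was -0.28 with 57.6% without DKO3, since the median difference from WT was -0.31 in DKO1, -0.24 in DKO2 and -0.996 in DKO3. Over the 44 members, the log2 fold change and the median of the other genes on the chromosome had a Pearson correlation of 0.64 and a Spearman correlation of 0.54. Members on 1 chromosome share that median, and all values come from the same 6 libraries, so this is a description. Of the 19 called members, 16 had the sign of their chromosome's median, and RAE1, SUN1 and SYNE2 did not. The like share over all called genes was not computed, so this count cannot be read as particular to the members.

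**Figure D5:**
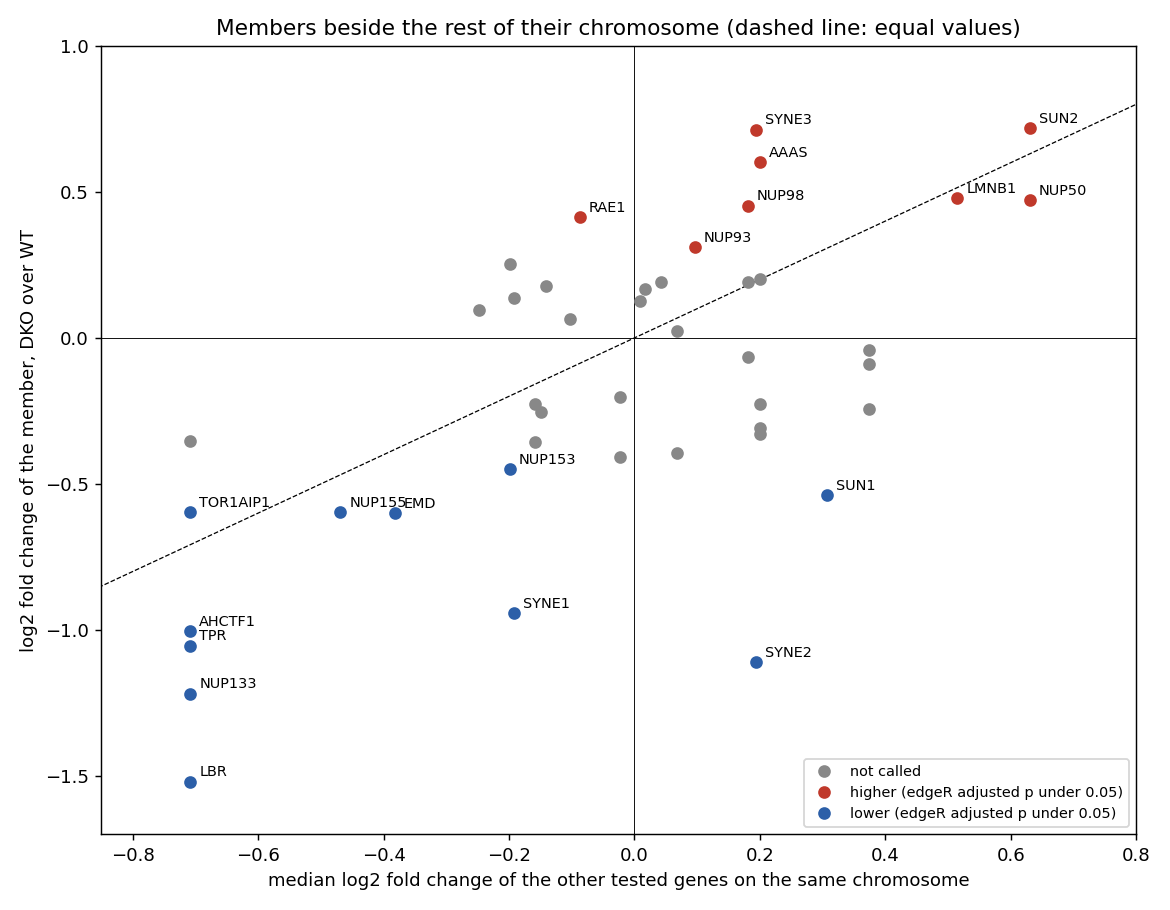
Each point is 1 of the 44 genes, with the median log2 fold change of the other tested genes on its chromosome (horizontal axis) and its own log2 fold change (vertical axis), coloured by call, with called genes named. LMNB1, SUN2, NUP50 and TOR1AIP1 lie near the dashed line of equal values, and SYNE2, SUN1, SYNE1 and LBR lie well below it.

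Set against their chromosome, some members stood near the rest and others apart. LMNB1 differed from its chromosome's median by -0.04, SUN2 by 0.09, NUP155 by -0.13, NUP50 by -0.16 and EMD by -0.22. The difference was -0.51 for NUP133, -0.35 for TPR, -0.30 for AHCTF1 and -0.81 for LBR. SYNE2 differed by -1.31 from a median of 0.19, the only member more than 2-fold away, and 32 of 353 other genes there (9.07%) were called lower (18.7% without DKO3). SUN1 differed by -0.84 from a median of 0.31, on a chromosome where 11.2% of other genes were called lower (23.5% without DKO3). SYNE1 differed by -0.75 from a median of -0.19, where 29.2% were called lower (41.6% without DKO3). RAE1 (0.50 above) and SYNE3 (0.52 above) stood out upward. Members without a call also stood apart, namely TOR1A (-0.62), LEMD3 (-0.53) and TMPO (-0.51). In all, 10 of the 44 lay over 0.5 from their chromosome's median, and the like share over all genes was not computed. LMNA differed by -0.38 from a median of -0.02. Over the 44 members the median size of the difference was 0.31, against 0.34 before the chromosome's median was subtracted.

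The nearest neighbours gave a like picture. Up to 25 tested genes on each side of NUP133 had a median log2 fold change of -0.76, and 48 of these 50 lay below 0. Around TPR the median was -0.92 with 42 of 50 below 0, around LBR -0.65 with 43 of 50, and around AHCTF1, near the end of its chromosome, -0.71 with 27 of 30. Around SUN2 the median was 0.77 with 4 of 50 below 0, and around EMD -0.73 with 46 of 48. The neighbours of SYNE2 had a median of 0.53, opposite to SYNE2 itself. NUP188, NUP214 and TOR1A share a chromosome with a median of 0.37, yet their neighbours had medians of -0.03, 0.02 and -0.004. TOR1A thus differed by -0.62 from its chromosome and by -0.24 from its neighbours. Others nearer to their neighbours included AAAS (0.08, against 0.40 from its chromosome), NUP93 (-0.06 against 0.21), NUP98 (0.10 against 0.27) and EMD (0.13 against -0.22). Members farther from their neighbours included SYNE2 (-1.64 against -1.31), SYNE3 (0.69 against 0.52), LMNB1 (-0.17 against -0.04) and NUP50 (-0.27 against -0.16). What sets the levels of these chromosomes apart in DKO was not tested.

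Other lists, drawn up with earlier results of these data known, held further genes of the pore, of transport, of the envelope membranes, of lamin processing and of proliferation. Between 28.6 and 50% of the tested genes of each were called, against 45.5% of all genes. Unlike the members, the genes of these lists were not set beside the rest of their chromosome. For the counts of each list without DKO3, the background was 74.6% of all genes (36% higher and 38.6% lower). In the fits without another sample, 2105 to 2822 of 13255 to 13300 genes were higher and 2146 to 2714 lower. Of 14 tested genes that work at the pore, 3 were higher and 4 lower, with a median log2 fold change of 0.23 (8 and 4 without DKO3, 0 to 3 and 2 in each fit without another sample). RANGAP1, the GTPase activator of RAN that RANBP2 holds at the pore, rose from 46.2 ± 1.14 to 74.0 ± 15.3 FPKM (0.73, SE 0.17), with a largest adjusted p of 0.054 without WT3. SEC13, a Y complex subunit shared with transport vesicles, was at 75.6 ± 1.55 and 94.6 ± 20.0 FPKM, and POM121C, a near copy of POM121, at 27.9 ± 0.213 and 30.2 ± 0.656. Neither was called.

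Of 31 genes of nuclear transport, 5 were higher and 4 lower (median -0.05), against 12 and 10 without DKO3, and 3 to 4 and 1 to 4 in the fits without another sample. RAN, the GTPase that gives transport its direction, rose in every sample, from 307, 299 and 303 FPKM in WT to 491, 480 and 460 in DKO (0.70, SE 0.07, edgeR adjusted p = 0.00031). Its counts were not whole in any of the 6 samples, so its value is uncertain too. RCC1, its exchange factor on chromatin, rose by 0.69 (SE 0.12). NXT2, a cofactor of mRNA export, fell from 14.2 ± 0.287 to 3.67 ± 2.26 FPKM (-1.94, SE 0.46, edgeR adjusted p = 0.012).

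Among 21 other envelope membrane genes, 5 were higher and 4 lower (median 0.04), against 7 and 9 without DKO3, and 2 to 5 and 0 to 1 in the fits without another sample. CHMP7, which starts the sealing of the envelope after mitosis, rose from 26.1 ± 1.04 to 42.0 ± 1.43 FPKM (0.73, SE 0.10, edgeR adjusted p = 0.0012), and NEMP2 rose from 2.41 ± 0.299 to 5.29 ± 0.803 (1.03, SE 0.20). Of 7 lamin processing genes, 2 were higher and 5 not called (median 0.09), against 5 higher and 1 lower without DKO3, and 1 higher in each fit without another sample. FNTB, a subunit of the farnesyltransferase that modifies lamins, rose from 11.2 ± 0.247 to 21.2 ± 2.33 FPKM (0.97, SE 0.14, edgeR adjusted p = 0.0012).

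Many envelope genes vary over the cell cycle, so 24 proliferation genes were read beside them. Of these, 5 were higher, 3 lower and 16 not called (median -0.03), against 7 and 10 without DKO3, and 4 to 5 and 1 to 3 in the fits without another sample. The proliferation marker MKI67 was at 89.4 ± 1.55 FPKM in WT and 86.1 ± 9.12 in DKO and was not called. RRM2 and TYMS, enzymes of nucleotide synthesis, and CDC20, an activator of the anaphase-promoting complex, rose by 0.56, 0.72 and 0.75 on the log2 scale. CENPF, a kinetochore protein gene that also acts at the envelope, fell from 54.4 ± 2.45 to 20.7 ± 5.68 FPKM (-1.37, SE 0.19, edgeR adjusted p = 0.0012). The part of these genes in the results on lamins and nucleoporins was not tested.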

How the data were processed

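The authors deposited 1 table with estimated counts and FPKM per gene and sample, per the file headers. Per the submitters' processing notes, the authors used HISAT and Bowtie2. Which program counted the reads, its version and the genome build were not given in the sources used here. Between 5.8 and 6.54% of the estimated counts in a sample were not whole (tolerance 0.001). The table's 9 columns of 3 other samples were not used.

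Estimated counts were rounded and tested with edgeR 4.0.16 (R 4.3.3), quasi-likelihood test, TMM normalization and the default filter by group (minimum count of 10). SE is the size of the log2 fold change over the root of F, and 95% intervals use it. A fold change compares shares of the library. Alternatives were DESeq2 1.42.0, limma 3.58.1 (voom, and log2 FPKM with pseudocounts of 1 and 0.1), other scalings and filters, a threshold of 0.01, the replicate block and leaving out each sample. The edgeR, DESeq2 and limma fits were tested on simulated counts with known changes, where false calls were more frequent than the threshold allows, most of all with DESeq2. Samples were grouped by title.

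Members and lists were chosen with earlier results of these data known. Any member could be named. Members called at a 2-fold change, lamins, SUN and SYNE genes and the smallest adjusted p of each role group are given per sample. Of other lists, up to 3 called genes in each direction by adjusted p and 2 of highest level could be named. SEC13, POM121C, NUPL2, MKI67 and the named markers were chosen after values were seen. One gene of the other lists is not reported here.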

Additional observations from a re-analysis of the deposited data

How the results depend on the processing

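The count of called members was 19 of 44 and that of all genes 5959. In fits without 1 sample these counts ranged from 11 to 34 and from 4266 to 9880, highest without DKO3 and lowest for members without WT1. At an adjusted p under 0.01 there were 11 members and 3902 genes. Replicate numbers did not pair the samples (correlations of same-numbered deviations of 0.02, -0.28 and -0.29, so samples did not correlate best with their own number), and with the replicate block 12 members were called, against 4485 of 13094 genes (34.3%). Under the 16 alternatives, or 14 for SYNE1 and SYNE3, which the FPKM minimum of 1 left out, 11 of the 19 called members kept call and direction in each, and 0 of 19 edgeR calls changed direction. The exceptions were AAAS, EMD, NUP153, NUP50, NUP93, RAE1, SYNE3 and TOR1AIP1, and all of these but EMD were lost with the block. NUP88, not called, changed sign to -0.0083 without the filter, -0.0097 with totals only, -0.0357 with limma on log2(FPKM + 1), with or without its filter, and -0.0364 with a pseudocount of 0.1. In fits without 1 sample, values of uncalled genes crossed 0 for NUP58 (-0.0837 to 0.2921), NUP88 (-0.0084 to 0.0528), NUP214 (-0.10 to 0.0014), RANBP2 (-0.0287 to 0.3545), NDC1 (-0.43 to 0.10) and BANF1 (-0.18 to 0.33). Other scalings moved the median log2 fold change of all genes from -0.01 to at most -0.04. The cause of these shifts was not tested. Depth limits SYNE3, with 16 to 34 counts.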
